A study of Mus musculus with 8 samples.

Results

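This account covers 10 genes of mitochondrial fusion and fission, Mfn1, Mfn2, Opa1, Dnm1l, Fis1, Mff, Mief1, Mief2, Oma1 and Yme1l1, out of 14860 genes with a probe set of their own on the array. They were chosen by gene symbol, and each had 1 probe set, so no choice between probe sets was needed. In muscle with forced Gadd45a the mitofusins Mfn1 and Mfn2, GTPases that fuse the outer membranes of mitochondria, were lower in every fit tried. Opa1, the GTPase that fuses the inner membranes, was lower by less, and its call was lost in 7 of the 8 fits without 1 array. Dnm1l, the GTPase that divides mitochondria, did not pass the test.

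The arrays measured RNA of the tibialis anterior, a mostly fast-twitch shin muscle, from male mice aged 8 weeks. All mice were ATF4 mKO, that is, they lacked the stress-responsive transcription factor ATF4 in muscle, and muscle with ATF4 was not analysed here. The 4 Gadd45a samples were right muscles given pCMV-FLAG-Gadd45a, a plasmid from which a viral promoter drives tagged Gadd45a, a small stress protein known to be induced in atrophying muscle. The 4 Control samples were left muscles given the empty plasmid pcDNA3. Muscles were taken on day 7. The Cre driver of the deletion and the share of fibres that took up plasmid are not given in the sources used here. Plasmid and leg side cannot be told apart, nor can Gadd45a and the making of any tagged protein. Because the labels do not state that the samples of a group were separate mice, p-values measure the spread between these samples, which may be technical.

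Mitochondria join and divide continually. The mitofusins Mfn1 and Mfn2 sit in the outer membrane and tether and fuse neighbouring mitochondria, and Opa1 fuses the inner membranes and holds the cristae in shape. Opa1 is cut by the inner membrane proteases Oma1, which is activated by stress, and Yme1l1, and its long forms are the ones needed for fusion. Division is carried out by Dnm1l (Drp1), which is recruited from the cytosol by the outer membrane proteins Mff, Mief1 (MiD51) and Mief2 (MiD49), with Fis1 as a further adaptor. In skeletal muscle, the coactivator PGC-1alpha and the nuclear receptor ERRalpha are known activators of Mfn2.

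The 250 bases before the most upstream RefSeq start of each fusion GTPase (GRCm38.p6) are shown because these 3 genes were called lower with all arrays; capitals mark matches to the motifs below. Mfn1 lies on the plus strand at chr3:32529232-32529481, Mfn2 on the minus strand at chr4:147904910-147905159, and Opa1 on the plus strand at chr16:29579084-29579333.
Mfn1: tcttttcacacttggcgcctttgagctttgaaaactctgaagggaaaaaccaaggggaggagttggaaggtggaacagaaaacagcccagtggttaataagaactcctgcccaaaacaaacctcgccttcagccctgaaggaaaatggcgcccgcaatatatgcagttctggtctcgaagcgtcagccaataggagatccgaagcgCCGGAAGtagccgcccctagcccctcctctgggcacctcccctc
Mfn2: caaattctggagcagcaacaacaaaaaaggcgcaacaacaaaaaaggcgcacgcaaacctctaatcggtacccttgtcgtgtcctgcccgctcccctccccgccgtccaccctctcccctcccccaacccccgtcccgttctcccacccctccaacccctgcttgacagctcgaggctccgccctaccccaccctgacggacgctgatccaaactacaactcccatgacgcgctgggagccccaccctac
Opa1: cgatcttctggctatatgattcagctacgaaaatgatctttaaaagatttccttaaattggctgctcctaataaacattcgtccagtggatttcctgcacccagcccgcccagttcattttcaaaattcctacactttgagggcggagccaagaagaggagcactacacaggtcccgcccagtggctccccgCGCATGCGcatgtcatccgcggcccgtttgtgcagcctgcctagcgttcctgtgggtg
In Mfn1 the capitals mark CCGGAAG, the core bound by GABPA, 44 to 38 bases before the start, and in Opa1 they mark the NRF1 core CGCATGCG, 58 to 51 bases before it. The Mfn2 stretch held none of the motifs searched, and sites outside these 250 bases were not looked for.

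Both strands of all 10 genes' stretches were searched, and the same was done for the 27025 genes with a start in the RefSeq table. The GABPA core CCGGAAG was in 4 of the 10, Mfn1, Fis1, Mief1 and Yme1l1, against 7.07% of all genes, with 2 copies in Yme1l1. Only 1 of those 4 genes, Mfn1, was lower in Gadd45a muscle. The core is rich in G and C, which made up 53.6%, 66.8%, 69.6% and 55.2% of the 4 stretches in that order. The median over all genes was 52.0%, and whether this accounts for the count was not tested. The NRF1 core CGCATGCG was in 1 of the 10 (Opa1), against 1.58% of all genes. The ERR core AAGGTCA (4.04% of all genes), the ATF4 composite motif TGATGNAAT (0.825%) and the CRE palindrome TGACGTCA (1.6%) were in 0 of the 10. No motif overlapped another in these stretches.

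Gadd45a itself read 10.35, 10.18, 10.46 and 10.34 log2 intensity units in Gadd45a muscles, against 7.85, 7.75, 7.66 and 7.80 in Control muscles, so the labels and the transcript go the same way. The probe set reads plasmid and mouse RNA together. Atf4, deleted in the muscle of both groups, averaged 7.49 ± 0.10 in Gadd45a and 6.95 ± 0.09 in Control muscles (SD, n = 4 each), which does not check the deletion. Among the arrays, Control 1 stood apart on the second principal component (12.6% of the variance), at -23.2 against 4.2 to 11.6 for the other Control arrays; values without it are given where they matter. Fast-fibre genes were bright, as for the calcium pump Atp2a1 at 11.45 to 11.58 in Gadd45a and 11.87 to 12.04 in Control muscles, against array medians of 5.852 to 5.919.

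Of the 10 genes, 4 were lower and 0 higher at an adjusted p under 0.05 (limma, Benjamini-Hochberg over all 16755 probe sets); 5 had an unadjusted p under 0.05, the further one being Mff. Over all probe sets 21.1% passed in either direction, 10.3% lower and 10.8% higher. Brighter probe sets were called more often, and all of the 10 genes but Mief1 were above median brightness. A fit of the 8378 probe sets at or above it called 1418 lower and 1868 higher, with 5 of the fusion and fission genes lower. The median log2 fold change was -0.19 for the 10 genes and -0.065 for all probe sets, and 7 of the 10 values were negative. The groups did not overlap for 4 genes, all lower, against 13.8% of all probe sets lower without overlap and 26.9% in either direction. By role, 3 of 3 fusion GTPases, 1 of 5 genes of the division machinery and 0 of 2 Opa1 proteases were lower. Without 1 array the count of the 10 called lower was 2 or 3, being 2 on leaving out Control 3, Control 4 or any Gadd45a array, and Opa1 and Mief2 were the genes that lost their calls. This division by role was made with the values known and was not tested.

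**Figure D1:**
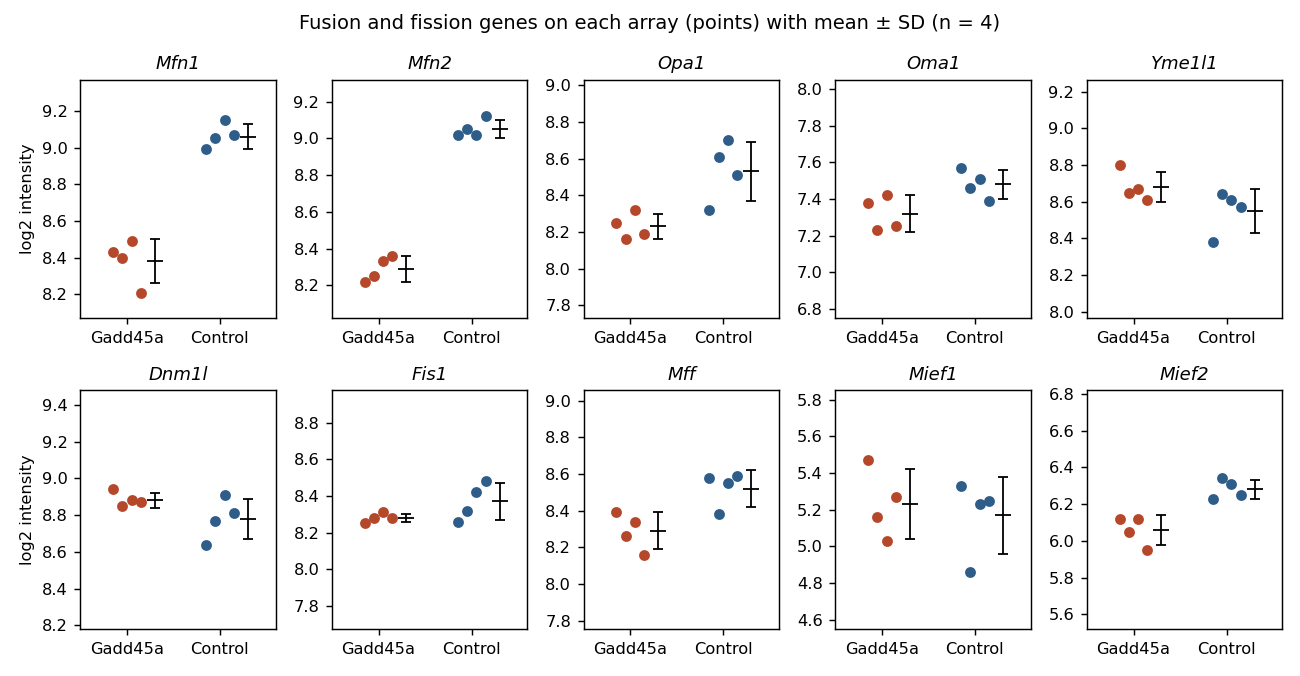
Log2 intensity of each fusion and fission gene on the 4 Gadd45a and 4 Control arrays (points), with the group mean ± SD beside them; every panel spans the same number of log2 units. Mfn1 and Mfn2 separate the groups widely, Opa1 and Mief2 narrowly, and the other 6 genes overlap.

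Mfn2, which besides fusing mitochondria tethers them to the endoplasmic reticulum, read 8.22, 8.25, 8.33 and 8.36 log2 units in Gadd45a muscles, against 9.02, 9.05, 9.02 and 9.12 in Control muscles. The groups were far apart, with 0.66 log2 units between the highest Gadd45a and the lowest Control array. The signal fell to 0.591-fold of Control (95% interval 0.534 to 0.654; log2 fold change -0.76, SE 0.07, limma adjusted p = 0.000114), which placed Mfn2 at the 1.2 percentile of changes over all probe sets.

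Mfn1, the mitofusin with the stronger tethering activity, read 8.43, 8.40, 8.49 and 8.21 in Gadd45a muscles, against 8.99, 9.05, 9.15 and 9.07 in Control muscles. Every Gadd45a array lay at least 0.50 log2 units under every Control array, with Gadd45a 4 the lowest. The signal was 0.623-fold of Control (95% interval 0.551 to 0.704; log2 fold change -0.68, SE 0.08, limma adjusted p = 0.000418). Both mitofusins passed in all 16 alternative fits, with log2 fold changes between -0.79 and -0.73 for Mfn2 and between -0.72 and -0.63 for Mfn1. An exact two-sided permutation test gave p = 0.0286 for Mfn1, Mfn2, Opa1 and Mief2, the smallest that 70 labellings of the arrays allow.

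Opa1 read 8.25, 8.16, 8.32 and 8.19 in Gadd45a muscles, against 8.32, 8.61, 8.70 and 8.51 in Control muscles. The groups touched: the highest Gadd45a array was at 8.319 and the lowest Control array, Control 1, at 8.323. Opa1 fell to 0.81-fold (95% interval 0.704 to 0.931; log2 fold change -0.30, SE 0.09, limma adjusted p = 0.0392). The call was lost on leaving out any 1 array other than Control 1 (adjusted p 0.0517 to 0.0918), and without Control 1 it was -0.38 with adjusted p = 0.0124. With median centring it was also lost (0.0704), and the probe set sums all Opa1 forms, so splice forms and cut forms cannot be told apart.

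The Opa1 proteases did not pass. Oma1 read 7.38, 7.23, 7.42 and 7.25 in Gadd45a muscles, against 7.57, 7.46, 7.51 and 7.39 in Control muscles (log2 fold change -0.17, 95% interval -0.33 to 0.00, limma adjusted p = 0.144). Yme1l1 read 8.80, 8.65, 8.67 and 8.61 in Gadd45a muscles, against 8.38, 8.64, 8.61 and 8.57 in Control muscles (0.13, 95% interval -0.05 to 0.31, limma adjusted p = 0.262). For each protease the groups overlapped by a single narrow margin, and the Yme1l1 difference was 0.08 without Control 1, its lowest array.

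Dnm1l read 8.94, 8.85, 8.88 and 8.87 in Gadd45a muscles, against 8.64, 8.77, 8.91 and 8.81 in Control muscles. The Gadd45a arrays lay close together (SD 0.04), near the top of the wider Control spread (SD 0.11). The log2 fold change was 0.10 (95% interval -0.06 to 0.27, limma adjusted p = 0.334), or 0.958-fold to 1.21-fold of Control, and it was 0.05 without Control 1. A fall of the size seen for the mitofusins lies outside that interval.

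Among the recruiters of Dnm1l, Mief2 read 6.12, 6.05, 6.12 and 5.95 in Gadd45a muscles, against 6.23, 6.34, 6.31 and 6.25 in Control muscles. The groups did not overlap, with a gap of 0.11 log2 units. Mief2 fell to 0.858-fold (95% interval 0.771 to 0.954; log2 fold change -0.22, SE 0.07, limma adjusted p = 0.0466). This call was lost on leaving out any 1 of the 8 arrays (adjusted p 0.056 to 0.116), and with median centring (0.0831), quantile normalization (0.0538) or cyclic loess (0.0544).

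Mff, the main recruiter in many cell types, read 8.39, 8.26, 8.34 and 8.16 in Gadd45a muscles, against 8.58, 8.38, 8.55 and 8.59 in Control muscles. Control 2 and Gadd45a 1 met, and the other arrays were apart. The difference of -0.24 (SE 0.08, 95% interval -0.41 to -0.06) missed the threshold (limma adjusted p = 0.0621) and passed in 5 of the 16 alternative fits, among them quantile normalization (0.0295) and the fit without Control 2 (0.0424), over a range of 0.0295 to 0.149. Mff thus had a difference as large as that of Mief2, on the other side of the threshold.

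Fis1 read 8.25, 8.28, 8.31 and 8.28 in Gadd45a muscles, against 8.26, 8.32, 8.42 and 8.48 in Control muscles (log2 fold change -0.09, 95% interval -0.25 to 0.06, limma adjusted p = 0.356). Mief1 read 5.47, 5.16, 5.03 and 5.27 in Gadd45a muscles, against 5.33, 4.86, 5.23 and 5.25 in Control muscles (0.06, 95% interval -0.22 to 0.34, limma adjusted p = 0.734). Its groups overlapped almost fully. It was the dimmest of the 10, at the 30.2 percentile of mean intensity, with the widest interval, and its sign turned without Control 2 (-0.04) or Gadd45a 1 (-0.01). In RefSeq its next protein-coding neighbour on chromosome 15 is Atf4, the gene deleted in muscle in both groups.

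**Figure D2:**
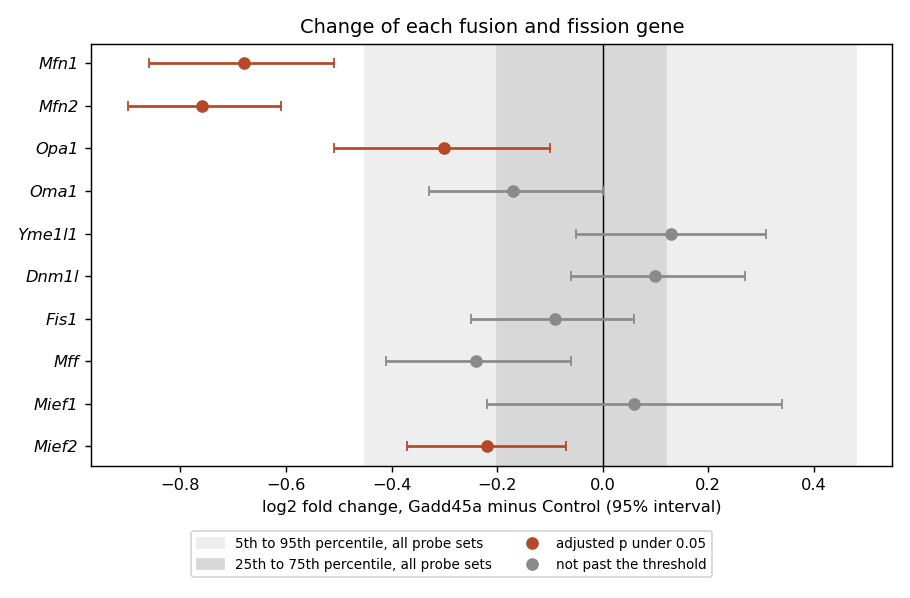
Log2 fold change (Gadd45a minus Control) with its 95% limma interval for each gene; shading gives the spread of changes over all probe sets. Mfn1 and Mfn2 lie below the 5th percentile (-0.45), and the other 8 genes lie inside the 5th to 95th percentile range.

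Differences taken on the same array cancel what is common to both genes, and show unequal change only. Mfn2 minus Mfn1 was -0.20, -0.15, -0.16 and 0.15 log2 units on Gadd45a arrays, against 0.02, 0.00, -0.13 and 0.05 on Control arrays, so the groups overlapped. The mean of Mfn1, Mfn2 and Opa1 minus Dnm1l, a contrast chosen after the values were seen, was -0.64, -0.58, -0.50 and -0.62 on Gadd45a arrays, against 0.14, 0.13, 0.05 and 0.09 on Control arrays. These did not overlap, and the difference between the group means was -0.69. No test was made. Dnm1l had the highest log2 fold change of the 5 genes of the division machinery (0.10), and the lowest was -0.24.

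Oma1 minus Yme1l1 ran from -1.43 to -1.24 on Gadd45a arrays and from -1.18 to -0.81 on Control arrays. The groups were narrowly separate for this pair of proteases, with Control 1 the farthest out at -0.81, although each gene alone overlapped between groups. No test was made of this. Mief2 minus Mief1 ran from 0.65 to 1.09 on Gadd45a arrays and from 0.90 to 1.48 on Control arrays, with overlap.

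**Figure D3:**
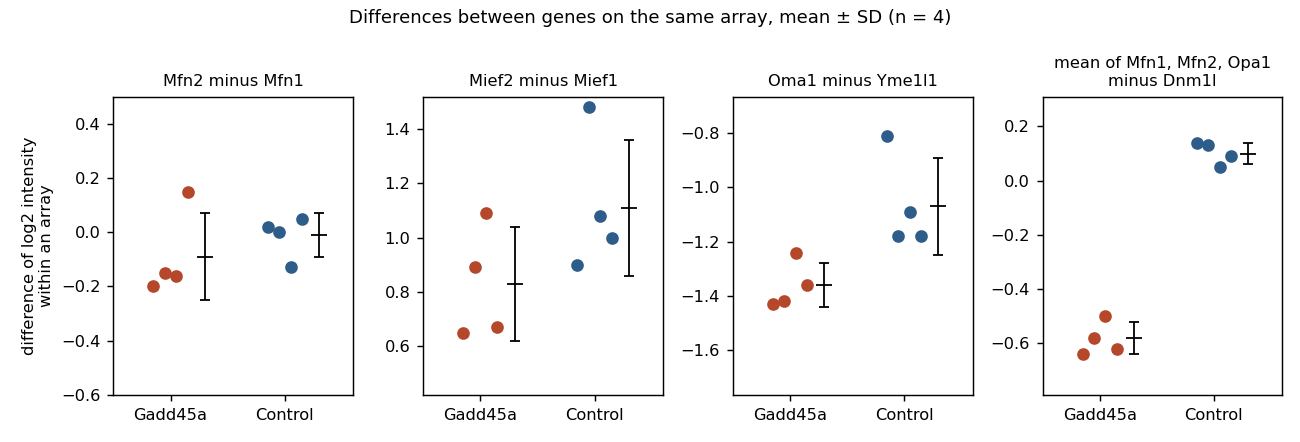
Within-array differences of log2 intensity on the 4 Gadd45a and 4 Control arrays (points), with group mean ± SD. The fusion GTPases against Dnm1l, a contrast chosen after the values were seen, averaged -0.58 in Gadd45a and 0.10 in Control muscles. Mfn2 against Mfn1 overlapped between the groups.

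Of 15 other measured factors that shape mitochondria, 3 were lower and 1 higher (median -0.04). Over all probe sets 10.3% were called lower and 10.8% higher (median -0.065), and these shares apply to each list count below. Gdap1, an outer membrane protein linked to division, read 5.33, 5.30, 5.52 and 5.37 in Gadd45a muscles, against 5.90, 6.01, 6.04 and 5.95 in Control muscles (log2 fold change -0.60, SE 0.07, limma adjusted p = 0.000553). The intermembrane space protein Chchd10 fell by 0.58 (SE 0.07) and the inner membrane division protein Mtfp1 by 0.54 (SE 0.09), with no overlap of the groups. The actin nucleator Spire1 rose by 0.25 (limma adjusted p = 0.0343), a call lost in 6 of 8 fits without 1 array. Gdap1 and Mtfp1, both linked to division, were thus lower in the same muscles as the mitofusins.

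Enzymes known to modify Dnm1l or its recruiters went both ways, with 5 of 15 higher and 3 lower (median 0.18). Prkar1a, the regulatory subunit of protein kinase A, read 9.74, 9.50, 9.53 and 9.65 in Gadd45a muscles, against 8.75, 8.81, 8.74 and 8.91 in Control muscles (0.80, SE 0.08, limma adjusted p = 0.000179). Prkaca, a catalytic subunit of protein kinase A, rose by 0.39 (SE 0.11, limma adjusted p = 0.0282). Cdk1, a kinase of dividing cells that phosphorylates Dnm1l in mitosis, rose by 0.67 (SE 0.07). Prkaa2, a catalytic subunit of the AMP-activated kinase, whose complex phosphorylates Mff, fell by 0.63 (SE 0.07). The other catalytic subunit of that kinase, Prkaa1, rose by 0.25 (SE 0.06, limma adjusted p = 0.0206). Ppp3cb, a catalytic subunit of calcineurin, which dephosphorylates Dnm1l, fell by 0.46 (SE 0.07). The count of higher genes ranged from 2 to 5 in the fits without 1 array.

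Genes that move and tether mitochondria gave 2 higher and 4 lower of 10 (median -0.19), with 2 or 3 lower without 1 array (2 without Control 2). The adaptor Trak2 (-0.53, SE 0.08) and the outer membrane GTPase Rhot2 (-0.34, SE 0.08), which link mitochondria to motors, fell. Armcx3, an outer membrane partner of that machinery, rose by 0.40 (SE 0.09) and the kinesin Kif5b by 0.39 (SE 0.08). Among mitophagy genes 3 of 11 were lower and 0 higher (median -0.21). Pink1, the kinase that marks damaged mitochondria and whose pathway ubiquitinates mitofusins, read 6.82, 6.55, 6.73 and 6.72 in Gadd45a muscles, against 7.21, 7.10, 7.29 and 7.36 in Control muscles (-0.53, SE 0.08, limma adjusted p = 0.00226). The deubiquitinase Usp15 fell by 0.35 (SE 0.07) and the receptor Bcl2l13 by 0.26, the call of Bcl2l13 being lost in 6 of 8 fits without 1 array.

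Transcriptional regulators of mitochondrial genes gave 6 lower and 0 higher of 15 (median -0.12). All 3 genes of the ERR family were lower: Esrrg (-0.36, SE 0.08), Esrrb (-0.35, SE 0.08) and Esrra, which encodes ERRalpha. Esrra read 5.83, 5.91, 5.78 and 5.78 in Gadd45a muscles, against 6.08, 6.33, 6.18 and 6.10 in Control muscles, with no overlap (-0.35, SE 0.08, limma adjusted p = 0.0119). Also lower were Ppargc1a (PGC-1alpha) and Ppara, at -0.68 and -0.54. Esrrb and Ppara were dim, at the 24.0 and 24.7 percentiles of mean intensity. Ppargc1b (0.03), Pprc1 (0.00) and Tfam (-0.12) were among the 9 genes of this list not called. So was Gabpb1, the highest of the list, at 0.33 (SE 0.11, limma adjusted p = 0.0639). The count called lower was 3 with the brightness filter, which removed Esrrb, Ppara and Ppard before the fit. The count called higher was 2 with that filter. It was 1 with median centring, with the trended robust variance and without Control 1, and 0 in the other fits. Of the factors whose motif was found in the stretches above, Gabpa (0.18, SE 0.06, limma adjusted p = 0.0718) and Nrf1 (0.12, SE 0.07, limma adjusted p = 0.219), both named here for that motif, did not pass.

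**Figure D4:**
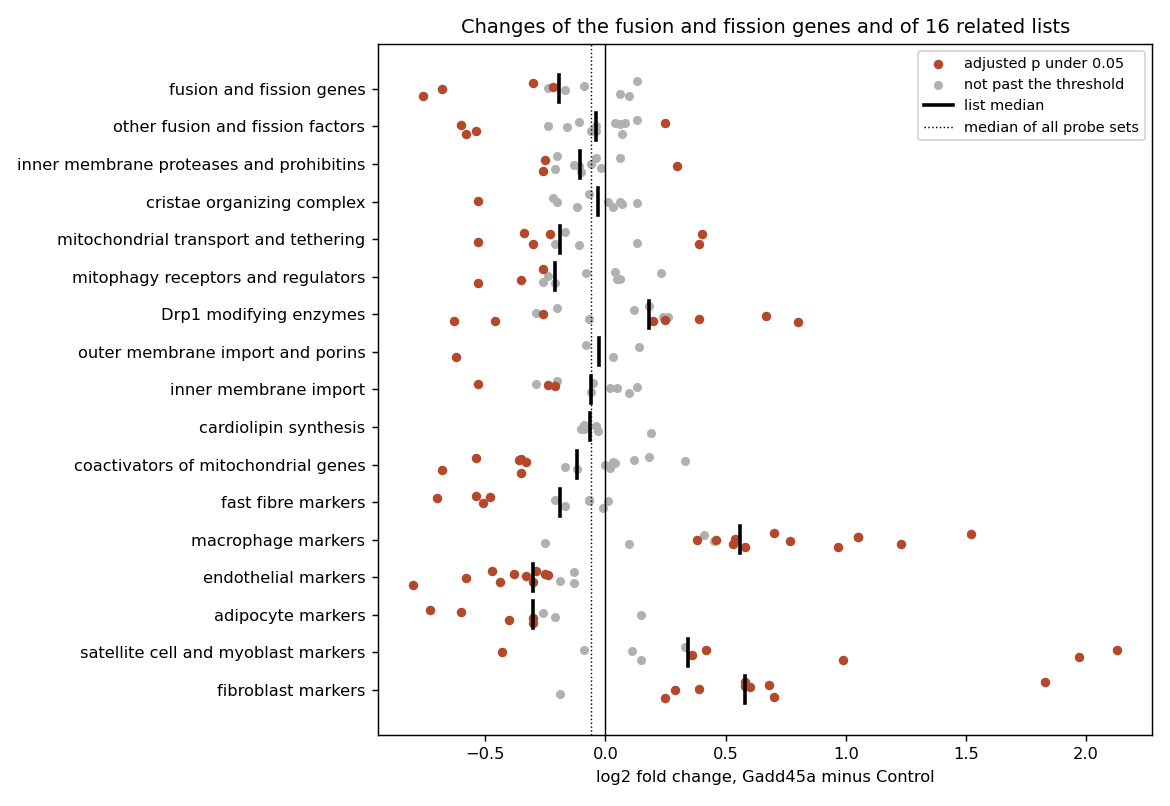
Log2 fold change (Gadd45a minus Control) of every measured gene of the fusion and fission set and of 16 related or cell type lists; bars are list medians and the dotted line is the median of all probe sets. Macrophage and fibroblast markers lie mostly to the right, endothelial and adipocyte markers to the left.

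Markers of other cell types moved with the groups, and in whole muscle fewer cells of a type and less RNA per cell cannot be told apart. Macrophage markers were higher in 12 of 16 and lower in 0 (median 0.56), with summed linear intensities of 7749 to 9106 in Gadd45a and 4982 to 5342 in Control muscles. Examples were the glycoprotein Gpnmb (1.52), the complement gene C1qa (1.23), the receptor Adgre1 (1.05) and the lysosomal Cd68 (1.05). The 4 not called were C1qb (0.45), Cx3cr1 (0.41), Itgam (0.10) and Cd163 (-0.25). For Cd163 every Gadd45a array was below every Control array. Fibroblast markers were higher in 9 of 10 and lower in 0 (median 0.58), led by the matrix protein Postn (1.83). Their sums were 7179 to 7967 in Gadd45a and 5082 to 5632 in Control muscles. Dcn, the 1 not called, was at -0.19, with every Gadd45a array below every Control array.

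Satellite cell and myoblast markers were higher in 5 of 10 and lower in 1 (median 0.35). Their sums were 1217 to 1423 in Gadd45a and 787 to 865 in Control muscles. The adhesion molecule Ncam1 (2.13), the fusion protein Mymk (1.97) and the regulator Myog (0.99) led, and Cd34 (-0.43) was the lower one. The 4 markers not called were Pax7 (0.11), Myf5 (0.15), Myod1 (0.33) and Cdh15 (-0.09). Whole-muscle RNA does not show whether muscle fibres or other cells made the transcripts of this list. Endothelial markers were lower in 10 of 13 and higher in 0 (median -0.30; 1413 to 1465 in Gadd45a and 1761 to 1938 in Control muscles), with the receptor Flt1 at -0.80; without 1 array 6 to 9 were called lower, 6 on leaving out Control 2 or Gadd45a 3. Adipocyte markers were lower in 5 of 8 and higher in 0 (median -0.30; 802 to 923 in Gadd45a and 1079 to 1248 in Control muscles), with the hormone Adipoq at -0.73; without 1 array 3 or 4 were called lower, 3 on leaving out Control 2, Control 4, Gadd45a 3 or Gadd45a 4. Fast fibre markers were lower in 4 of 10 and higher in 0 (median -0.19; 34073 to 35306 in Gadd45a and 37337 to 40788 in Control muscles). Mybpc2 (-0.70), a myosin-binding protein, and Actn3 (-0.54), an actinin, led those. The 6 not called were Mylpf (0.01), Tnnt3 (-0.01), Tnnc2 (-0.07), Acta1 (-0.07), Tnni2 (-0.17) and Pvalb (-0.21). Log2 intensities have no true zero, so no marker can be called absent, and the part of these cells in the change of the mitofusins was not tested.

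By root mean square difference of gene-centred log2 values over the 8 arrays, the genes most like Mfn2 were Pfkm (0.048), Pygm (0.049), Mybpc2 (0.049), Jak2 (0.060) and Adal (0.061). Their log2 fold changes ran from -0.77 for Pfkm to -0.68 for Jak2 and Adal, beside -0.76 for Mfn2. Those most like Mfn1 were Ptprb (0.041), Phkb (0.043), Rasgrp3 (0.055), Ginm1 (0.060) and Ccnk (0.066). Pfkm and Pygm encode muscle phosphofructokinase and glycogen phosphorylase, Phkb a phosphorylase kinase subunit, and Ptprb an endothelial phosphatase. Mfn1 was the 66th nearest gene to Mfn2, and Mfn2 the 97th nearest to Mfn1, at a difference of 0.117. Numbered Gm and LOC symbols, Rik symbols and accessions were left out before ranking. The measure holds the group difference itself, and all values come from the same 8 arrays.

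**Figure D5:**
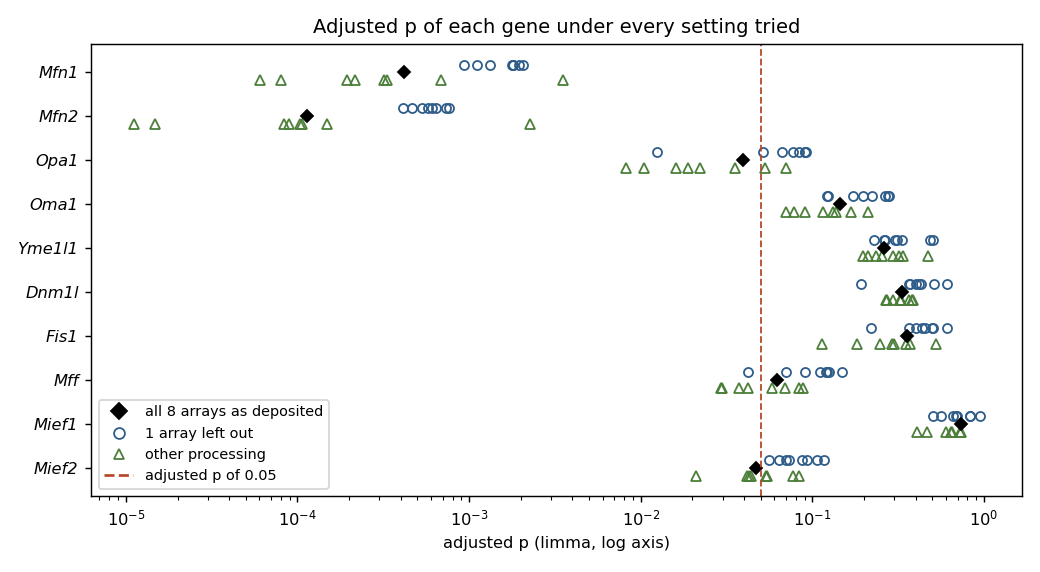
Adjusted p (limma, log axis) of each gene with all 8 arrays as deposited, with 1 array left out, and under other processing; the dashed line is the threshold of 0.05. Mfn1 and Mfn2 stay below it in every setting drawn, Opa1, Mief2 and Mff lie on both sides, and the other 5 genes stay above it.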

How the data were processed

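RNA was measured on 8 arrays, 4 per group; per the labels, total RNA was amplified and biotin-labelled. The values deposited by the authors are log2 intensities per probe set; the submitters' processing notes list RMA, GCOS and mm9 with no version. RMA subtracts background, quantile-normalizes arrays and summarises probes, which compresses small changes of dim probe sets. How these probe sets were selected was not given in the sources used.

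Groups and sample numbers came from the titles. Of 16755 probe sets, 14996 had 1 symbol, 1019 several and 740 none listed; only the first kind was named, with the probe set of highest mean per gene. The deposited values were fitted with limma 3.58.1 in R 4.3.3 (lmFit, eBayes, two-sided, no block), adjusted over all probe sets, at a threshold of 0.05. SE is moderated. The fit was tested on simulated data. Alternatives were leaving out each array, the sample number as a block, a brightness filter, a fit on 1 probe set per gene, array weights, a trended robust variance, and normalization by cyclic loess, quantiles or median centring.

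The genes and lists were chosen with earlier results of these data known, so list counts are descriptions, with no set test. Named were all 10 genes, Gadd45a, Atf4, up to 4 called genes per list by size of change (the top 2 of any list in which 0 or 1 passed), and the 5 genes most like Mfn2 and Mfn1. Gabpa, Nrf1, Esrra, Ppargc1b, Pprc1, Tfam, Ppard, Pax7, Myf5, Myod1 and Cdh15 were added after their values were seen. So were Prkaa1, Prkaca, Gabpb1, C1qb, Cx3cr1, Itgam, Cd163, Dcn, Mylpf, Tnnt3, Tnnc2, Acta1, Tnni2 and Pvalb. Promoter stretches are RefSeq's (GRCm38.p6); coordinates are of that build, not mm9. Protein sequences were not used here.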

Additional observations from a re-analysis of the deposited data

How the results depend on the processing

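Of the 10 genes, Mfn1 and Mfn2 passed in all 8 fits without 1 array and all 8 with other processing. The count of genes called lower, 4 as reported, was 2 with median centring and 2 with the replicate block, 5 with the brightness filter and 5 with the trended robust variance, and ranged from 2 to 3 without 1 array; the count called higher was 0 in each. Over all probe sets, the called share that was higher ranged from 50.8% to 57.5%, beside 51.2% as reported. The Mief1 difference ranged from -0.04 to 0.13 without 1 array. Scaling moved the median change of all probe sets from -0.065 to between -0.043 and -0.010. Same-numbered Gadd45a and Control arrays correlated at 0.05 to 0.10 in their deviations from the group means, and differently numbered ones at -0.08 to 0.03. All 8 arrays correlated best with their own number, which is a hint from the data and not part of the labels, so the samples were not treated as paired. With the replicate block Opa1 was -0.30 (limma adjusted p = 0.0529), Mief2 was -0.22 (0.0769), and 3171 probe sets were called, against 3542. Fits without 1 array have fewer samples; for the other settings under which Opa1 and Mief2 lost their calls, the cause was not tested. The number of arrays limits the precision, most for the dim Mief1.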

Other observations

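Other mitochondrial membrane genes were mostly not called, where over all probe sets 10.3% were called lower and 10.8% higher. In the cristae organizing complex 1 of 10 was lower and 0 higher: Chchd3, a subunit that joins cristae to the outer membrane, read 8.77, 8.56, 8.82 and 8.61 log2 units in Gadd45a muscles, against 9.09, 9.32, 9.26 and 9.21 in Control muscles (log2 fold change -0.53, SE 0.08, limma adjusted p = 0.0022). Samm50 of the outer membrane sorting machinery was at -0.22 (adjusted p = 0.0745). Of 4 measured porins and outer membrane import genes 1 was lower and 0 higher: the channel Vdac1 fell by 0.62 (SE 0.09, adjusted p = 0.00148), while Tomm70a was at 0.14 (adjusted p = 0.214).

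Among 11 inner membrane import genes 3 were lower and 0 higher, namely Timm8b (-0.53), Timm50 (-0.24) and Timm17a (-0.21), whose calls were lost in 4, 7 and 8 of 8 fits without 1 array. Of 12 inner membrane proteases and prohibitins, the unfoldase Clpx (-0.26) and the paraplegin gene Spg7 (-0.25) were lower and the intermembrane space protease Htra2 (0.30) was higher, calls lost in 6, 7 and 6 of those fits. None of 6 cardiolipin synthesis genes passed with limma, and 0 was called in any of the 16 alternative fits; the largest differences were Prelid1 at 0.19 (0.00 without Control 1) and Ptpmt1 at -0.10, and 0 of the 6 had an unadjusted p under 0.05.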
